A study of Mus musculus with 17 samples.

Results

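The expression of 28 genes of cholesterol and fatty acid synthesis was analysed across 17 RNA-seq libraries of mouse retinal progenitor cells (mNRPCs). The genes were taken from a list of symbols, and they make up 28 of the 18836 genes listed in at least 1 library. Of these, 21 belong to the sterol branch and 7 to the fatty acid branch. All 28 were listed in all 17 libraries, and all 28 had a mean FPKM (a level in sequenced fragments, scaled by transcript length and library depth) of at least 1, the minimum for testing.

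The cells were derived from neural retina of adult C57BL/6 mice and had been expanded, per the study's methods, in a serum-free basic medium (BM) containing basic fibroblast growth factor (bFGF) and CHIR99021, an inhibitor of the kinase GSK3. For the time course they were kept in BM alone, in BM with bFGF (B), in BM with CHIR99021 (C) or in BM with both (BC), and 1 library was made of each on days 1, 3, 5 and 7. A further library, labelled as day 0 with no treatment, served as the control. The study calls it both cells in BM and cells before treatment, so what it was cultured in is uncertain. No treatment and day was repeated, so the tests below took their spread from departures of the 16 cultured libraries from the fitted models, and not from separate cultures.

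Total expected counts ran from 17571973 to 19428744 per library, with a median of 18274989. Of 8 retinal progenitor markers, 5 (Pax6, Six3, Sox2, Nes and Lhx2) reached an FPKM of 1 in at least 1 library, and the others, Rax and Six6 among them, stayed below 1 in all 17. None of 5 photoreceptor markers (Rcvrn, Crx, Nrl and Sag among them) and none of 5 oligodendrocyte markers reached 1. Of 6 mesenchymal markers 5 did (Col1a1, Col1a2, Dcn, Pdgfra and Pdgfrb). Their summed FPKM was 4.54 on day 0, 16.1 to 163 in the 8 libraries without bFGF and 7.76 to 38.7 in the 8 libraries with bFGF. The range was lower with bFGF, with overlap, and the part of these markers in the differences below was not tested. In bulk RNA, fewer cells of a type and less RNA per cell cannot be told apart.

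Cells build cholesterol from acetyl-CoA through the mevalonate pathway, squalene and a series of sterol intermediates, and cholesterol is a main lipid of neural and glial membranes. When sterols are scarce in the endoplasmic reticulum, the escort protein SCAP carries the membrane-bound factor SREBP2 (gene Srebf2) to the Golgi, where proteases release it to activate sterol synthesis genes, and INSIG proteins hold SCAP back when sterols are plentiful. The related factor SREBP1 (gene Srebf1) acts mainly on fatty acid synthesis genes, and its own gene is a target of the oxysterol receptors (LXR).

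The promoters of 5 members are shown. Hmgcs1, Msmo1 and Srebf2 are the 3 of 17 matched sterol genes whose promoter held TCACNCCA, Insig1 had the largest change with bFGF, and Ebp is the sterol gene that was lower with it. Idi1, Cyp51, Lss, Sc5d and other sterol genes that rose with bFGF held no TCACNCCA match. Each line holds the 250 bases before the start site, 5′ to 3′ on the gene's strand, from RefSeq on build GRCm38.p6. Capitals mark every match, on either strand, to TCACNCCA (a short form of the sterol regulatory element that SREBP binds), CCAAT (the box bound by NF-Y) and CACGTG (an E-box). No match to one of these motifs overlapped a match to another in the sequences shown.
Hmgcs1: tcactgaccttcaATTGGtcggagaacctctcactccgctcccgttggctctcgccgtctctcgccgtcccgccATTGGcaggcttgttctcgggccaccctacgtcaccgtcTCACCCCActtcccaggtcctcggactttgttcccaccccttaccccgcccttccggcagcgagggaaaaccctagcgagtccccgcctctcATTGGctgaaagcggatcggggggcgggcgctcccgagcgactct
Msmo1: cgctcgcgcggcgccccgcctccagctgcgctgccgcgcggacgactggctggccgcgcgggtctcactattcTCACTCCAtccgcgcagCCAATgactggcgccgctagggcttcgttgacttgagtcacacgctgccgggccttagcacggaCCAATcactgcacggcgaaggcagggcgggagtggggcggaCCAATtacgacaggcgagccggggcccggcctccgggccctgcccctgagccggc
Srebf2: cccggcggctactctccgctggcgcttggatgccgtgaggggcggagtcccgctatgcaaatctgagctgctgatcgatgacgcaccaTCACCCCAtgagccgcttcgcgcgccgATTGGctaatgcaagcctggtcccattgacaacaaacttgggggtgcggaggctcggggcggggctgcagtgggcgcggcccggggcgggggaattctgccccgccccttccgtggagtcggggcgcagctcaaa
Insig1: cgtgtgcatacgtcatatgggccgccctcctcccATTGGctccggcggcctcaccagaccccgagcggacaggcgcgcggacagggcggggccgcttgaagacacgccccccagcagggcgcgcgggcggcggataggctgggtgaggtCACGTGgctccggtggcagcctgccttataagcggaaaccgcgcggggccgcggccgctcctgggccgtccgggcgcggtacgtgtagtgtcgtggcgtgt
Ebp: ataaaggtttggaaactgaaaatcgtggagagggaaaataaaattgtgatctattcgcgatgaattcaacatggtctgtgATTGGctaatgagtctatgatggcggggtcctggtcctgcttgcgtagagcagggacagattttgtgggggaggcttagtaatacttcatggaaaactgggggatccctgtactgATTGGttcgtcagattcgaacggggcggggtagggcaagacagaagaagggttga
The windows were chr13:119690101-119690350 (plus strand) for Hmgcs1, chr8:64733579-64733828 (minus strand) for Msmo1, chr15:82147019-82147268 (plus strand) for Srebf2, chr5:28071162-28071411 (plus strand) for Insig1 and chrX:8193513-8193762 (minus strand) for Ebp. The TCACNCCA match began 137 bases before the start of Hmgcs1, 177 before that of Msmo1 and 162 before that of Srebf2. Insig1 held no TCACNCCA match but an E-box beginning 101 bases before its start.

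RefSeq promoters were matched for 22 of the 28 genes, with 27 start sites, and Fdft1, Fdps, Scd1, Scd2, Sqle and Stard4 were not matched. Over windows of 300 bases (250 before the start site and 50 after), TCACNCCA was in 3 of 20 promoters of sterol genes (15.0%), in 0 of 7 of fatty acid genes, and in 4.36% of all 32851 promoters. CCAAT was in 16 of 20 promoters of sterol genes (80.0%) and in 4 of 7 of fatty acid genes (57.1%), against 37.4% of all promoters. The E-box CACGTG was in 4 of 20 promoters of sterol genes, those of Dhcr7, Hsd17b7, Insig1 and Sc5d, and in 0 of 7 of fatty acid genes, against 7.15% of all. A match describes letters only and is not evidence of binding, and no match says only that the letters are not in the window.

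From day 3 onwards, most sterol genes were higher in the libraries with bFGF. In the model with a bFGF effect for each day (16 libraries, 11272 genes), 17 of the 21 sterol genes were higher with bFGF on days 3 to 7 and 1 was lower, with a median log2 fold change of 1.38, against -0.02 over all genes tested (edgeR's quasi-likelihood test, Benjamini-Hochberg adjusted p under 0.05 here and below). The background was large, since 40.8% of all genes tested were called higher and 42.5% lower in this comparison. Of the 7 fatty acid genes, 4 were higher and 2 lower, with a median of 0.41. The share of sterol genes called higher was thus above the background, while the fatty acid genes went both ways as the background did, and the difference between the branches was not tested. Fitted fold changes are relative to the median gene. On FPKM without further scaling, the median of all genes lay 0.33 lower with bFGF on the log2 scale. There, the count of sterol genes called lower rose from 1 to 4, with Mvk (-0.47), Hsd17b7 (-0.40) and Dhcr7 (-0.30) beside Ebp, and 2 fatty acid genes in place of 4 were called higher. Of all 11272 genes tested, 2863 were called higher and 6732 lower on that scale.

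**Figure D1:**
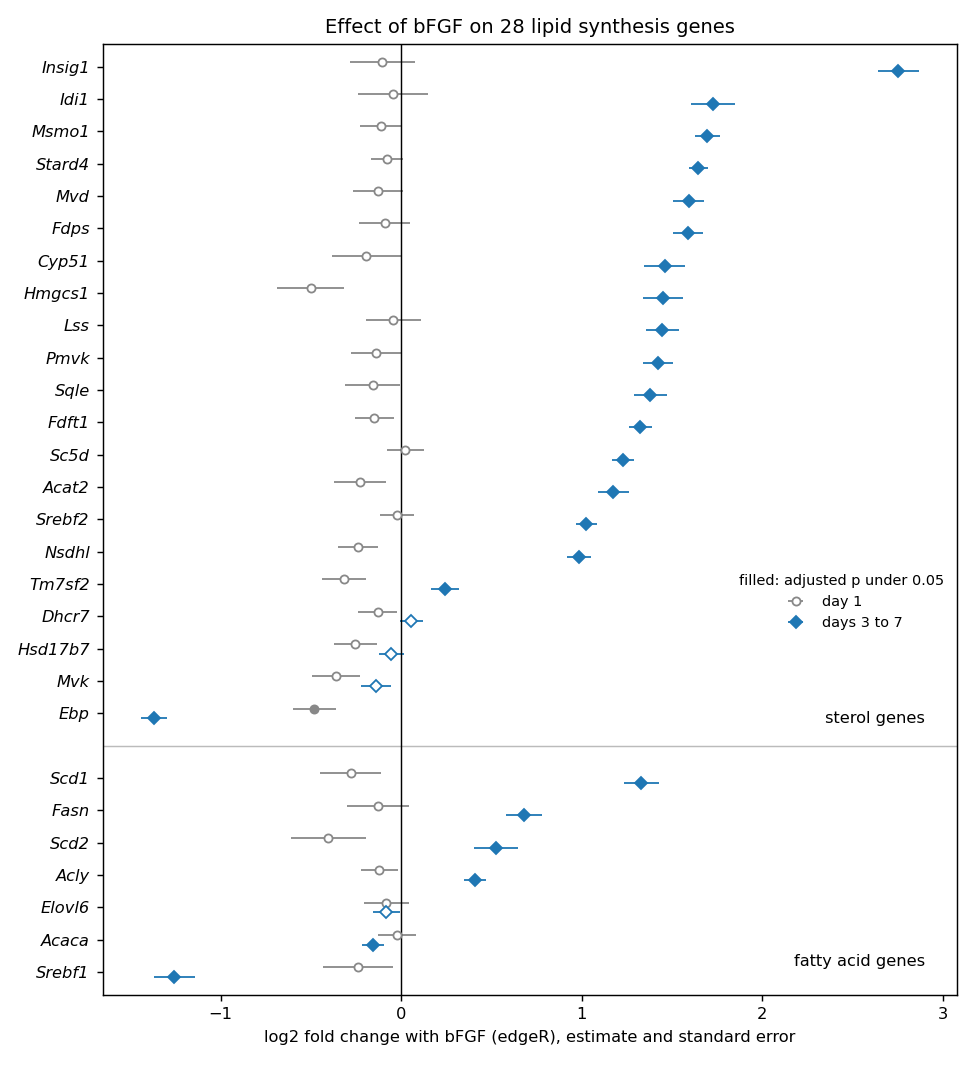
Log2 fold change with bFGF of the 28 genes (x axis, edgeR estimate with its standard error), on day 1 (grey circles) and on days 3 to 7 (blue diamonds), with sterol genes above the grey line and fatty acid genes under it. Filled symbols passed an adjusted p of 0.05. Day 1 estimates lie between -0.50 and 0.02, while on days 3 to 7 the sterol genes reach 2.75 (Insig1) and Ebp and Srebf1 lie at -1.37 and -1.26.

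Among the regulators, Insig1, which retains SCAP in the endoplasmic reticulum, changed most. On days 3 to 7 its FPKM had a lowest value of 63.4, a median of 71.5 and a highest of 82.4 in the 6 libraries without bFGF, and 222, 379 and 771 in the 6 with bFGF. All libraries with bFGF were above all libraries without it, and the peak was B on day 5. The log2 fold change of Insig1 was 2.75 (SE 0.11, adjusted p = 3.2e-10). Srebf2, the SREBP2 gene itself, ran from 72.9 through a median of 79.6 to 89.5 without bFGF and from 107 through 125 to 167 with it, again with no overlap, and its log2 fold change was 1.03 (SE 0.06, adjusted p = 3.8e-09). Stard4, a carrier of cholesterol between membranes, ran from 14.7 to 18.6 without bFGF and from 30.8 to 64.2 with it (log2 fold change 1.65, SE 0.05, adjusted p = 8.4e-11).

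Of the 7 genes from acetyl-CoA to farnesyl diphosphate, 6 were higher with bFGF on days 3 to 7, against 40.8% of all genes tested. Hmgcs1, which makes the HMG-CoA that enters the mevalonate pathway, had FPKM values of 54.9, 66.4 and 83.0 (lowest, median, highest) without bFGF and of 82.9, 144 and 314 with it. The groups overlapped only by BC on day 3, which lay at 82.9, just below BM on day 5. Its log2 fold change was 1.45 (SE 0.11, adjusted p = 6.2e-08). Fdps, which makes farnesyl diphosphate and was the most abundant of the 28 genes on day 0, ran from 136 to 200.4 without bFGF and from 263 to 525 with it, with no overlap (log2 fold change 1.59, SE 0.08, adjusted p = 2.6e-09). Idi1, the isomerase before it, had a median FPKM of 6.94 without bFGF and of 15.5 with it (log2 fold change 1.73, SE 0.12, adjusted p = 3.2e-08), also with no overlap.
Acat2, an acetyl-CoA thiolase, ran from 24.3 to 38.4 without bFGF and from 41.1 to 73.3 with it. Pmvk, the phosphomevalonate kinase, ran from 30.3 to 35.1 and from 46.0 to 90.1, and these 2 genes also had no overlap between the groups. Mvd, which decarboxylates diphosphomevalonate, ran from 10.9 to 19.5 and from 18.6 to 51.8, with BC on day 7 inside the range without bFGF. Their log2 fold changes were 1.18 (Acat2), 1.42 (Pmvk) and 1.59 (Mvd). The exception was Mvk, the mevalonate kinase, which ran from 15.8 to 24.1 without bFGF and from 10.1 to 22.7 with it, at a log2 fold change of -0.14 (SE 0.08, adjusted p = 0.13). Without BC on day 3 it was called lower, at -0.22 (adjusted p = 0.0100).

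Of the 11 genes from squalene synthesis to cholesterol, 8 were higher with bFGF on days 3 to 7, against 40.8% of all genes tested. Of these 11 genes, 1 was lower, against 42.5% of all genes tested, and 2 did not pass the test. Msmo1, which removes methyl groups from the sterol ring, changed most of them: its FPKM values were 39.6, 47.1 and 59.9 (lowest, median, highest) without bFGF and 98.1, 123 and 146 with it. The groups were far from overlapping, and the log2 fold change was 1.70 (SE 0.07, adjusted p = 3.4e-10). Sqle, the squalene epoxidase and a rate-limiting step of the pathway, ran from 32.0 to 46.2 without bFGF and from 56.5 to 131 with it (log2 fold change 1.38, SE 0.09, adjusted p = 1.9e-08).
Fdft1, the squalene synthase, ran from 30.2 to 37.9 without bFGF and from 54.2 to 98.5 with it. Cyp51, the lanosterol demethylase, ran from 25.1 to 36.9 and from 41.6 to 97.5, and Sc5d, a late desaturase, from 30.2 to 34.7 and from 50.7 to 92.0. These 3 did not overlap between the groups either, with log2 fold changes of 1.32 (Fdft1), 1.46 (Cyp51) and 1.23 (Sc5d). Lss, which closes the sterol rings, ran from 13.4 to 20.6 and from 18.9 to 44.5, and Nsdhl, a sterol dehydrogenase, from 16.7 to 24.1 and from 20.4 to 38.5. Both overlapped at their margins, with log2 fold changes of 1.45 (Lss) and 0.98 (Nsdhl).
Tm7sf2, a sterol reductase, was called higher with bFGF at a log2 fold change of 0.24 (SE 0.08, adjusted p = 0.011), but only relative to the median gene. Its FPKM ran from 7.02 to 11.2 without bFGF and from 5.28 to 13.4 with it, and on unscaled log2(FPKM + 1) the value was -0.10. Without BM on day 5 the call was lost (adjusted p = 0.052). The direction of Tm7sf2 also changed with the day in single libraries (B against BM, then BC against C). The log2(FPKM + 1) difference was 0.77 and 0.85 on day 3. It was -0.53 and -0.96 on day 5, and -0.20 and -0.53 on day 7. Hsd17b7, a sterol ketone reductase, ran from 18.3 to 25.2 and from 12.8 to 22.0 (log2 fold change -0.05, SE 0.07, adjusted p = 0.47). Dhcr7, which makes cholesterol from its last precursor, ran from 55.0 to 103 and from 56.4 to 67.1 (log2 fold change 0.06, SE 0.06, adjusted p = 0.41).

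Ebp, a sterol isomerase of the same late steps, was the sterol gene that went the other way. On days 3 to 7 its FPKM values were 50.7, 65.5 and 75.5 (lowest, median, highest) without bFGF and 14.3, 18.6 and 31.8 with it. All 6 libraries with bFGF were below all 6 without. The log2 fold change was -1.37 (SE 0.07, adjusted p = 2.1e-09). In all, 12 of the 21 sterol genes (Acat2, Pmvk, Idi1, Fdps, Fdft1, Sqle, Cyp51, Msmo1, Sc5d, Srebf2, Insig1 and Stard4) had every library with bFGF above every library without it on these days, against 11.9% of all genes tested. Ebp alone of the 21 had them all below, against 29.7% of all genes tested.

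**Figure D2:**
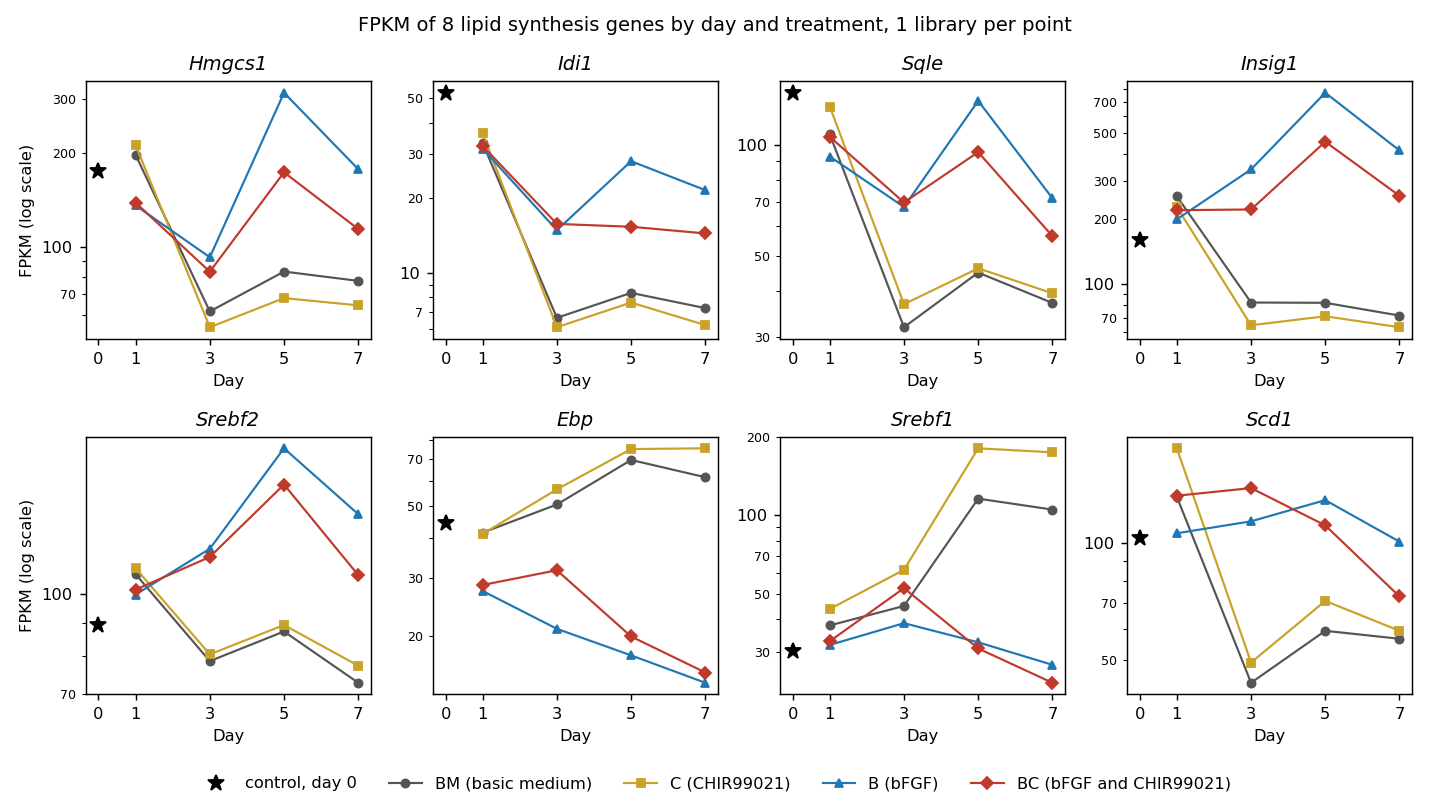
FPKM of 8 genes (y axis, log scale) by day (x axis) in BM, C, B and BC, with the day 0 control as a star and 1 library per point. On days 3 to 7 the B and BC lines of Idi1, Sqle, Insig1, Srebf2 and Scd1 lie above those of BM and C, those of Ebp lie below, and Srebf1 reaches 181 in C on day 5 but not above 52.7 with bFGF.

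The 7 fatty acid genes did not share 1 direction. Scd1, a stearoyl-CoA desaturase, was the only one whose libraries with bFGF were all above those without on days 3 to 7. Of all genes tested, 11.9% did so. The FPKM values of Scd1 were 43.8, 58.1 and 71.0 (lowest, median, highest) without bFGF and 72.9, 112 and 138 with it (log2 fold change 1.33, SE 0.10, adjusted p = 5.4e-08). Srebf1, the SREBP1 gene, went the other way. Its FPKM in BM was 45.0 on day 3, 116 on day 5 and 105 on day 7, and in C it was 61.9, 181 and 174. In B it was 38.7, 32.7 and 26.8, and in BC 52.7, 30.95 and 22.9. The groups overlapped on day 3 and were apart on days 5 and 7, and the log2 fold change over the 3 days was -1.26 (SE 0.11, adjusted p = 3.7e-07).
Fasn, the fatty acid synthase, ran from 25.2 to 54.6 without bFGF and from 32.0 to 72.3 with it (log2 fold change 0.68, SE 0.10, adjusted p = 3.1e-05). Scd2, the desaturase that is abundant in neural tissue, ran from 144 to 427 and from 194 to 500 (log2 fold change 0.52, SE 0.12, adjusted p = 0.0015). Acly, which makes cytosolic acetyl-CoA from citrate, ran from 40.6 to 56.1 and from 39.0 to 73.4 (log2 fold change 0.41, SE 0.06, adjusted p = 3.3e-05). The 3 genes overlapped between the groups, and on unscaled log2(FPKM + 1) Scd2 (0.15) and Acly (0.05) did not pass the test.
Acaca, the acetyl-CoA carboxylase, ran from 10.2 to 16.01 without bFGF and from 6.21 to 13.9 with it, and its log2 fold change of -0.16 (SE 0.06, adjusted p = 0.031) did not pass the test without BM, C or B on day 3, BM or B on day 5, or BM, C or BC on day 7 (adjusted p from 0.051 to 0.097). Elovl6, an elongase of saturated fatty acids, ran from 9.09 to 13.6 and from 3.47 to 19.2 (log2 fold change -0.08, SE 0.08, adjusted p = 0.33). In both genes, libraries with bFGF were above those without on day 3 and below them on days 5 and 7. Acly went the same way in single libraries (B against BM, then BC against C). Its log2(FPKM + 1) difference was 0.53 and 0.84 on day 3, -0.21 and -0.28 on day 5, and -0.15 and -0.44 on day 7. Fasn (-0.08 and -0.40) and Scd2 (-0.37 and -1.05) were lower with bFGF on day 7.

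The branches were also compared day by day, without a test. Each day gave 2 contrasts of single libraries that differed in bFGF only, namely B with BM and BC with C. The median log2(FPKM + 1) difference of the sterol genes was 1.02 and 1.00 on day 3, 1.28 and 0.92 on day 5, and 0.93 and 0.51 on day 7. For the fatty acid genes it was 0.53 and 0.84, then -0.21 and -0.28, then -0.37 and -1.05. Over all genes tested it was -0.11 and -0.08, then -0.42 and -0.39, then -0.46 and -0.50. On day 3, 6 of 7 fatty acid genes were higher with bFGF in each pair, against 4668 and 4767 of all 11272 genes tested. On day 7, 6 of 7 were lower in each pair, but so were 7751 and 7813 of the 11272, and the fatty acid median lay above that of all genes in B against BM and below it in BC against C. Of the sterol genes, 16 of 21 were higher in each pair of day 7, against 3518 and 3453 of the 11272.

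On day 1 the picture was different. In that day's pairs, all 21 sterol genes and all 7 fatty acid genes had a lower FPKM with bFGF, in both pairs. Of all 11272 genes tested, 6345 were lower in B than in BM and 6298 lower in BC than in C. Medians on the log2(FPKM + 1) scale were -0.20 and -0.24 for sterol genes and -0.14 and -0.37 for fatty acid genes. Over all genes tested the median was -0.03 in both pairs. Few of the differences of the 28 genes passed the test. Only Ebp, at 41.5 (BM) and 41.1 (C) without bFGF and at 27.4 (B) and 28.6 (BC) with it, was called (log2 fold change -0.48, SE 0.12, adjusted p = 0.026), and it was not called without BM (adjusted p = 0.21), B (0.066) or BC (0.22) of day 1. None of the 28 genes was called higher by edgeR, DESeq2 or limma, against 6.21% of all genes tested by edgeR, and 1 was called lower, against 4.46%. At an unadjusted p under 0.05, 4 genes were counted, all of them lower (Hmgcs1, Mvk, Tm7sf2 and Ebp). Hmgcs1 was at 198 and 212 without bFGF and at 136 and 139 with it, and its log2 fold change of -0.50 (SE 0.18, adjusted p = 0.11) missed the threshold, which it passed by DESeq2 (adjusted p = 0.042) and without B or BC on day 5. Insig1 was at 256 and 228 without bFGF and at 200.1 and 221 with it (log2 fold change -0.10, SE 0.18, adjusted p = 0.76).

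The change of the bFGF effect between day 1 and days 3 to 7 was tested directly. It was positive and past the threshold for 17 of 21 sterol genes and negative for 1 (Ebp), against 28.9% and 33.2% of all genes tested. Insig1 had the largest change among the 28 genes, at 2.86 on the log2 scale (SE 0.22, adjusted p = 8.9e-07), followed by Hmgcs1 at 1.95 (SE 0.22, adjusted p = 1.2e-05). Of the fatty acid genes, Scd1, Scd2, Fasn and Acly had a positive change and Srebf1 a negative one, at -1.02 (SE 0.23, adjusted p = 0.0019). Mvk, Hsd17b7, Dhcr7, Acaca and Elovl6 did not pass this test. With 1 bFGF effect for all 4 days, 16 sterol genes were higher and 1 was lower, against 34.6% and 33.9% of all genes tested, and 3 fatty acid genes were higher and 1 lower.

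Without bFGF, sterol genes fell steeply between day 1 and day 7. In BM and C together, 19 of 21 sterol genes were lower on day 7 and 1 (Ebp) was higher, with a median log2 fold change of -1.72, against 0.02 over all genes tested, of which 31.5% were called lower and 32.3% higher. Mvd fell most: from 86.9 in BM and 78.8 in C on day 1 to 15.6 and 12.3 on day 7 (log2 fold change -2.61, SE 0.15, adjusted p = 6.9e-08). Lss followed, from 85.5 and 104 to 17.2 and 14.7 (log2 fold change -2.49), and Acat2, from 165 and 179 to 33.1 and 30.6 (log2 fold change -2.46). Hsd17b7, the gene not called, was at 20.9 and 21.2 on day 1 and at 24.52 and 24.65 on day 7. Of the fatty acid genes, 6 of 7 fell and Srebf1 rose, from 37.9 and 43.8 to 105 and 174 (log2 fold change 1.72, SE 0.20, adjusted p = 1.2e-05). From day 1 to day 7, Fasn, Acly, Acaca, Elovl6, Scd1 and Scd2 all moved opposite to Srebf1. This did not hold for each step in between. The summed FPKM of the 7 fatty acid genes, Srebf1 included, rose from 320 on day 3 to 603 on day 5 in BM. In C it rose from 408 to 815. The call of Scd2 (-0.54) was lost without BM or C on day 1 or BM on day 7, and that of Dhcr7 (-0.37) without BM on day 7.

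With bFGF the sterol genes went both ways between day 1 and day 7, in shares near those of all genes tested. In B and BC, 7 of 21 were higher (Hmgcs1, Fdft1, Hsd17b7, Sc5d, Srebf2, Insig1 and Stard4) and 9 were lower, with a median of -0.27, against 35.8% and 39.5% of all genes tested. On unscaled log2(FPKM + 1) the split was 3 higher and 14 lower, where the median of all genes was -0.41. There, 2457 of all 11272 genes tested were called higher and 6266 lower. Insig1 rose from 200.1 in B and 221 in BC to 417 and 257 (log2 fold change 1.07, SE 0.18, adjusted p = 0.00018), and Sc5d from 59.9 and 57.5 to 88.0 and 67.8 (log2 fold change 0.76). Mvk had the largest fall of the sterol genes, from 43.0 and 45.4 to 10.9 and 10.3 (log2 fold change -1.61, SE 0.14, adjusted p = 6.4e-07). By edgeR, DESeq2 and limma, none of the fatty acid genes rose, and by edgeR 4 fell, Elovl6 most, from 27.0 and 30.1 to 3.47 and 4.43 (log2 fold change -2.42, SE 0.14, adjusted p = 2.4e-08). Srebf2, Insig1 and Stard4 rose over these days with bFGF, while Srebf1 had a log2 fold change of 0.05 (adjusted p = 0.83).

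Compared with the single day 0 library, for which no test was possible, most of the 28 genes were lower later in culture. On day 7, 20 were at least 2 times lower in BM and 19 in C, 15 were so in B and 18 with both agents, on the log2(FPKM + 1) scale, against 13.0%, 13.9%, 23.2% and 25.6% of all 11258 genes. The median difference of the sterol genes from day 0 was -1.76 in BM and -1.78 in C on day 7, and -1.02 in B and -1.47 in BC. For the fatty acid genes it was -0.85 and -0.78 without bFGF but -1.30 and -1.26 with it. On day 0 itself the sterol genes ran from 20.9 (Tm7sf2) to 895 (Fdps) and the fatty acid genes from 25.2 (Acaca) to 296 (Scd2). Together the 21 sterol genes held 0.606% of the summed FPKM on day 0, and on day 7 0.208% in C, 0.224% in BM, 0.233% in BC and 0.338% in B. As a share, BC thus lay close to the libraries without bFGF by day 7. This depended on the scale. Without division by the library's sum, the 21 sterol genes added up on day 7 to an FPKM of 877 (C), 910 (BM), 1379 (BC) and 1852 (B). By that measure BC was above both libraries without bFGF. The highest share of days 3 to 7 was 0.555%, in B on day 5.

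**Figure D3:**
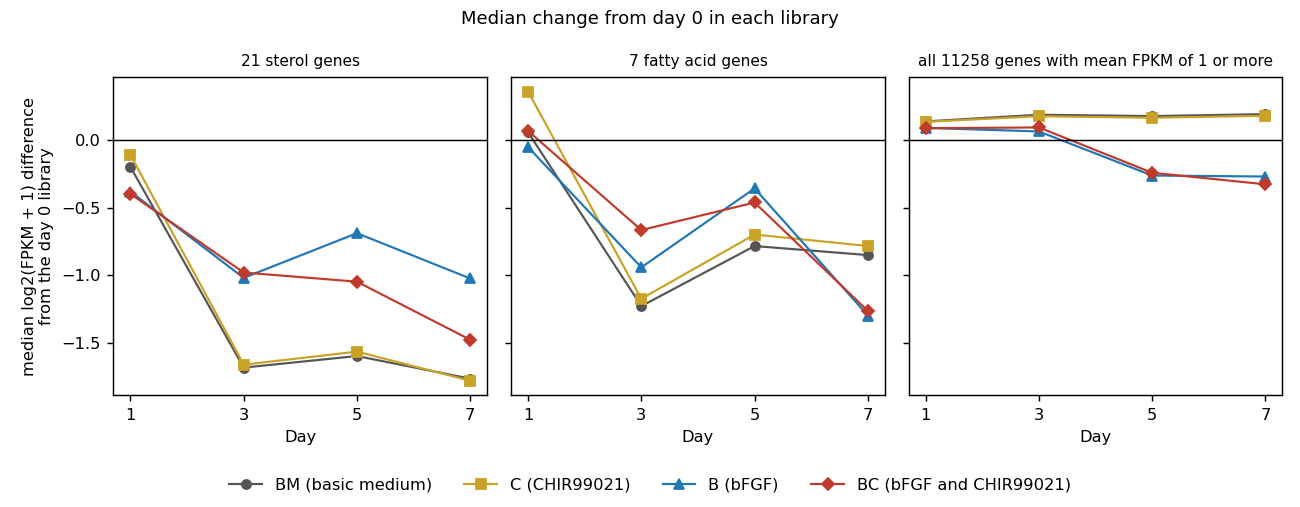
Median log2(FPKM + 1) difference from the day 0 library (y axis) by day (x axis) in BM, C, B and BC for the 21 sterol genes, the 7 fatty acid genes and all genes averaging an FPKM of 1 or more. On day 7 the sterol medians lie at -1.76 and -1.78 without bFGF and at -1.02 and -1.47 with it, while the fatty acid medians are lower with bFGF. The medians of all genes are lower with bFGF too, at 0.19 and 0.18 without it and -0.27 and -0.33 with it.

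Differences of the 28 genes with CHIR99021 were small beside those with bFGF. In the additive model, 0 of 28 were called higher or lower with CHIR99021, against 0.0532% and 0.284% of all genes tested by edgeR. DESeq2 and limma called 0 as well, and at an unadjusted edgeR p under 0.05, 1 of the 28 was counted (Dhcr7). That model leaves the change of the bFGF effect with the day in its spread. In the model with a bFGF effect for each day, an alternative added after the data were seen, 2 sterol genes were higher with CHIR99021 (Ebp and Dhcr7) and 3 were lower (Mvd, Fdps and Insig1), and 2 fatty acid genes were higher (Fasn and Elovl6), against 9.72% and 9.79% of all genes tested. These are 4 of 28 genes higher and 3 of 28 lower, close to the background. The log2 fold changes were small, at -0.39 for Mvd (SE 0.07, adjusted p = 0.0041), -0.35 for Insig1 (SE 0.09, adjusted p = 0.020), 0.32 for Fasn (SE 0.09, adjusted p = 0.022) and 0.30 for Elovl6 (SE 0.06, adjusted p = 0.0089).

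**Figure D4:**
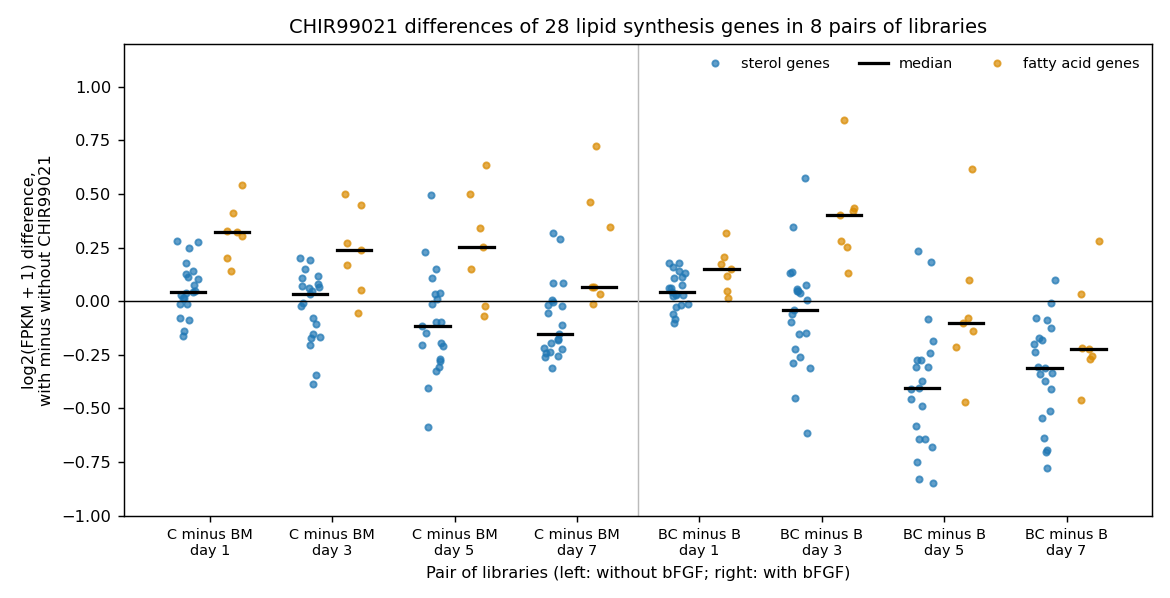
Difference in log2(FPKM + 1) with minus without CHIR99021 (y axis) of each of the 28 genes in 8 pairs of libraries (x axis), 4 without bFGF (C minus BM) and 4 with bFGF (BC minus B), with sterol genes in blue, fatty acid genes in orange and black bars at the medians. With bFGF the sterol medians are -0.41 on day 5 and -0.31 on day 7, and in all 8 pairs the fatty acid median lies above the sterol median.

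Without bFGF, CHIR99021 went with more RNA of Srebf1 and of the desaturase gene Scd2. Srebf1 was higher in C than in BM in 4 of 4 days, at 43.8 against 37.9, 61.9 against 45.0, 181 against 116 and 174 against 105. In the added model, with separate effects, its log2 fold change with CHIR99021 was 0.52 without bFGF (SE 0.10, adjusted p = 0.0093) and 0.05 with it (SE 0.10, adjusted p = 0.76). Scd2 was at 549.95 against 438, 204 against 144, 427 against 301 and 401 against 291 (log2 fold change 0.46 without bFGF, SE 0.11, adjusted p = 0.029). Dhcr7 was also higher (0.31, adjusted p = 0.015). These 3 were the called genes of the 28 without bFGF, all of them higher, against 2.89% of all genes tested called higher and 4.41% lower.

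On days 5 and 7, most sterol genes were lower with CHIR99021 in pairs of single libraries, both with and without bFGF. A CHIR99021 effect for each day was not tested. In BC against B, 19 of 21 sterol genes had a lower FPKM on day 5 and 20 of 21 on day 7. The same held for 5107 and 6506 of all 11272 genes tested. The sterol medians were -0.41 and -0.31 on the log2(FPKM + 1) scale, against 0.03 and -0.05 over all genes tested. Without bFGF the direction was the same, with 14 of 21 lower in C than in BM on day 5 and 16 of 21 on day 7, at medians of -0.11 and -0.15, against 5728 and 5720 of all 11272 genes tested lower. In BC against B, 6 of 21 were lower on day 1 and 11 of 21 on day 3, against 5090 and 5248 of the 11272. Insig1 was at 221 in BC against 200.1 in B on day 1, then at 222 against 341, 458 against 771 and 257 against 417. Its log2 fold change with CHIR99021 in the presence of bFGF, over days 1 to 7 together in the added model, was -0.48 (SE 0.12, adjusted p = 0.019). Hmgcs1 (-0.40), Mvd (-0.42), Fdps (-0.33), Cyp51 (-0.42) and Sc5d (-0.23) were also called lower, and Elovl6 (0.40) higher, against 8.07% of all genes tested called lower and 8.84% higher.
The effects without and with bFGF were not shown to differ for any of the 28 genes. The interaction of bFGF and CHIR99021 was called for 0 of 28 in the additive model, where 0.00887% of all genes tested were called in the positive and 0.0% in the negative direction, and for 0 of 28 in the added model, where 0.559% and 0.133% were. At an unadjusted p under 0.05, 0 and 4 of the 28 were counted in these edgeR fits, and in the first DESeq2 and limma called 0 too. Srebf1 had an interaction of -0.46 in the added model (SE 0.14, adjusted p = 0.17) and Scd2 one of -0.48 (SE 0.16, adjusted p = 0.21).

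Other genes of these pathways, taken as whole lists, were read from the same fits. For bFGF on days 3 to 7, each count below stands beside the 40.8% of all genes tested that were called higher and the 42.5% called lower, and each median beside -0.02. Of 5 tested genes of sterol synthesis outside the 28, 3 were higher and 2 lower (median log2 fold change 0.84), which is not far from those shares. Lbr, a sterol reductase of the nuclear envelope, ran from 9.30 to 11.97 without bFGF and from 16.6 to 27.6 with it, with no overlap (log2 fold change 1.38, SE 0.06, adjusted p = 3.7e-10). Of 12 genes of sterol uptake and trafficking, 9 were higher and 2 lower (median 1.31), a larger share higher than among all genes tested. Lrp8, a lipoprotein receptor, ran from 2.70 to 4.98 without bFGF and from 12.4 to 14.2 with it, with no overlap (log2 fold change 2.18, SE 0.06, adjusted p = 4.9e-11).

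Of 9 tested genes that control SREBP, 3 were higher with bFGF on days 3 to 7 and 4 were lower (median -0.11), near the 40.8% and 42.5% of all genes tested. Scap ran from 28.8 to 33.1 without bFGF and from 7.96 to 15.7 with it (log2 fold change -1.21, SE 0.07, adjusted p = 5.3e-09), and Mbtps1, the first of the proteases that cut SREBP, from 50.7 to 69.4 and from 10.2 to 33.6 (log2 fold change -1.20). Insig2 had a log2 fold change of 0.24, beside 2.75 for Insig1, and Tmem41b one of 1.03. Of 7 tested genes of LXR and sterol efflux, 1 was higher and 6 were lower (median -0.92), against the same shares. Mylip, an LXR target that encodes a ubiquitin ligase, ran from 23.9 to 32.3 without bFGF and from 3.08 to 7.66 with it (log2 fold change -2.37, SE 0.13, adjusted p = 3.0e-09). Abca1, the cholesterol exporter, had a log2 fold change of -1.62 and Cyp27a1, a sterol hydroxylase, one of -1.43. Abcg1 was listed at an FPKM of at most 0.02 and was not tested.

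Of 16 tested genes of fatty acid synthesis outside the 28, 9 were higher with bFGF on days 3 to 7 and 5 lower (median 0.53), not far from the 40.8% and 42.5% of all genes tested. Lpin1, a phosphatidate phosphatase (1.38), Elovl5, an elongase of polyunsaturated fatty acids (1.29), Acss2, an acetyl-CoA synthetase (0.73), and Fads1, a desaturase (0.33), were higher, and Fads2 (-0.20, adjusted p = 0.13) did not pass the test. Thrsp, a lipogenic gene without a known enzyme activity, was lower with bFGF (log2 fold change -4.69, SE 0.53, adjusted p = 3.0e-06) and stood at 114 in C against 5.15 in BM on day 5. Of 13 tested genes of fatty acid oxidation, 2 were higher and 8 lower (median -0.25), against the same shares. Cpt1a, which admits fatty acids to mitochondria, ran from 69.5 to 102 without bFGF and from 3.98 to 24.1 with it (log2 fold change -3.00, SE 0.08, adjusted p = 4.9e-11). Cpt2 (-1.10) and the carnitine carrier Slc25a20 (-0.84) were lower as well.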

How the data were processed

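RNA-seq of 17 mRNA libraries (BGISEQ-500 platform) was read from 1 table per library. The authors mapped reads to the mouse genome with Bowtie 2. Their paper names eXpress for quantification, while the submitters' processing notes list Bowtie2, RSEM and build mm10, and versions are not given in the sources used here. The deposited expected counts (estimated counts, which need not be whole) were rounded to whole numbers for count tests. The deposited FPKM values were used as levels, and as log2(FPKM + 1) for differences between libraries. Genes missing from a library's table were set to 0, and 0 columns of other series were present. Total expected counts were 17571973 to 19428744 per library. Reads of near-identical paralogs were split by the authors' counting, so such genes are uncertain.

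Testing was limited to the 11272 genes whose FPKM averaged 1 or more over the 16 cultured libraries, by edgeR's quasi-likelihood test with TMM scaling and Benjamini-Hochberg adjustment over all genes tested, at a threshold of 0.05. The models were day + bFGF + CHIR99021 (10 residual degrees of freedom), the same with an interaction of both agents (9), and a bFGF effect for each day with CHIR99021 additive (7). With 1 library per treatment and day, p-values set each effect against a spread taken from departures of the libraries from these models, and not from separate cultures. The standard error is the absolute log2 fold change over the square root of F. Alternatives were RLE scaling, DESeq2, limma on log2(FPKM + 1) and log2(FPKM + 0.1), no filter, a mean FPKM of at least 5, leaving out each library and, for effects over all days, leaving out day 1. The use of a bFGF effect for each day in the CHIR99021 and interaction tests (7 and 6 residual degrees of freedom) was chosen after seeing the data. Day 0 entered no test. Promoters were from RefSeq (GRCm38.p6).

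The members and all lists were chosen with earlier results of these data known. All 28 members are named. Of the other lists, a fixed set (Scap, Insig2, Abca1, Abcg1, Acss2, Fads1 and Fads2 among them) was named where listed, with up to 3 genes of each list of the largest absolute log2 fold change among those called for bFGF or CHIR99021 over all days. Some genes that this rule or the marker lists hold are not reported here by name. Of the marker lists, Müller glia and astrocyte had 2 of 6 genes reaching an FPKM of 1, neuron 2 of 5, endothelial 1 of 4, microglia 1 of 5 and retinal pigment epithelium 1 of 5. Tools were R 4.3.3, edgeR 4.0.16, limma 3.58.1, DESeq2 1.42.0, Python 3.11.15, numpy 2.4.6, pandas 2.3.3 and matplotlib 3.10.9.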

Additional observations from a re-analysis of the deposited data

Results flagged for a closer look

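The effect of bFGF differed between day 1 and days 3 to 7, by edgeR's quasi-likelihood test of the difference itself, for 23 of the 28 genes. Such differences were common, since 28.9% of all genes tested were called with a positive difference and 33.2% with a negative one. The values below are the log2 fold change with bFGF on days 3 to 7 minus that on day 1. In the mevalonate steps they were 1.40 for Acat2, 1.95 for Hmgcs1, 1.56 for Pmvk, 1.72 for Mvd, 1.77 for Idi1 and 1.68 for Fdps. From squalene synthesis to cholesterol they were 1.47 for Fdft1, 1.54 for Sqle, 1.49 for Lss, 1.65 for Cyp51, 0.56 for Tm7sf2, 1.81 for Msmo1, 1.22 for Nsdhl and 1.21 for Sc5d, and -0.89 for Ebp. The regulators and the sterol carrier had 1.05 (Srebf2), 2.86 (Insig1) and 1.72 (Stard4). Of the fatty acid genes, Acly had 0.53, Fasn 0.81, Scd1 1.61 and Scd2 0.93, and Srebf1 had -1.02. Ebp and Srebf1 were thus the called genes with a negative difference.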

How the results depend on the processing

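Counts of called genes were recomputed under each alternative. Most of those that moved by over 1.5 times did so with limma on log2(FPKM + 1) and on log2(FPKM + 0.1), which has no scaling beyond FPKM. It gave 4 sterol genes lower, 1 fatty acid gene higher and 2 lower for bFGF over days 1 to 7, and 4 sterol genes lower and 2 fatty acid genes higher for bFGF on days 3 to 7. It gave 2 fatty acid genes with a negative difference between days 3 to 7 and day 1, and 3 sterol genes higher and 14 lower for day 7 against day 1 with bFGF. Of all 11272 genes, limma on log2(FPKM + 1) called 2289 higher and 5686 lower for bFGF over days 1 to 7. The counts were 2863 and 6732 for bFGF on days 3 to 7, and 2093 and 5325 for its difference from day 1. For day 7 against day 1 with bFGF they were 2457 and 6266. On days 3 to 7, Tm7sf2 turned to -0.10 (pseudocount 1) and -0.12 (0.1), and Dhcr7 to -0.30 under both. DESeq2 called 2 sterol genes lower with bFGF on day 1. On days 3 to 7, a mean FPKM of at least 5 gave 2 sterol genes lower, and no filter gave 1 fatty acid gene lower. A bFGF effect for each day, chosen after seeing the data, gave 2 sterol genes higher, 3 lower and 2 fatty acid genes higher with CHIR99021, where the additive model had 0. The cause was not tested.

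Leaving out each library in turn gave, for bFGF over days 1 to 7, 1 to 2 sterol genes lower and 2 to 3 fatty acid genes higher, for day 1, 0 to 2 sterol genes lower, and for days 3 to 7, 16 to 17 sterol genes higher, 1 to 2 lower and 1 to 2 fatty acid genes lower. Of 220 counts under the other alternatives, 198 stayed within 1.5 times the main count, and of 512 with a library left out, 494 did. No fit with a replicate block was made, since the labels give no replicate numbers. The groups share the day of culture, which every model holds as a term. With 1 library per treatment and day, a library that stands apart and a treatment effect particular to that day cannot be told apart.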
